A study of Homo sapiens with 24 samples.

Results

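The phagocyte NADPH oxidase is the enzyme complex with which neutrophils, monocytes and macrophages make superoxide. Transcripts of 5 of its genes, CYBB, CYBA, NCF1, NCF4 and RAC2, were followed in the MV4-11 cell line, which is a widely used model of acute myeloid leukaemia with the MLL-AF4 fusion. The 5 genes were taken by name from a table of 38048 genes, all 5 were present, and all 5 passed the filter on low counts among 16640 genes. The table held 24 libraries of poly(A) RNA in 8 groups of 3, and every library was labelled PRMT5 +/+. The control received DMSO. The treated groups received 3 nM PRT220, which inhibits the arginine methyltransferase PRMT5, 10 nM GSK-LSD1, which inhibits the histone demethylase LSD1, or both together. Further groups received MC4455, MC4491, the type I arginine methyltransferase inhibitor MS023, or GSK-LSD1 added to MS023. DMSO, PRT220, GSK-LSD1 and their combination were given for 3 days, and the labels state neither dose nor time for MS023 and its combination, MC4455 and MC4491, nor the targets of the last pair. The labels do not say whether libraries of a group came from separate cultures, so the p-values measure the spread between these libraries only.

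In resting phagocytes the oxidase lies in parts. The catalytic subunit gp91phox, made from CYBB, and its stabilising partner p22phox, made from CYBA, form a membrane heterodimer called flavocytochrome b558, while other subunits, among them the organiser p47phox (NCF1) and p40phox (NCF4), wait in the cytosol. On stimulation p47phox is phosphorylated and the cytosolic proteins move to the membrane, where the GTPase RAC2 completes the active enzyme, and inherited loss of CYBB, CYBA, NCF1 or NCF4 causes chronic granulomatous disease. CYBB and NCF1 are regarded as late genes of myeloid maturation, and the factor PU.1 is known to act on both promoters.

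Upstream sequences are shown for the members with a promoter at hand, and no link between their letters and the levels was tested. RefSeq promoters (GRCh38.p14) were at hand for 3 of the 5 genes, and NCF4 and RAC2 are named only. The start sites of the 3 RefSeq promoters lie inside the gene bounds given further on, from GENCODE 29, so the last bases before them do as well. Each line gives the 250 bases before the start site, 5′ to 3′ on the strand of the gene, with the letters GAGGAA, a PU.1 core, in capitals wherever they occur on either strand (TTCCTC where they lie on the opposite strand).
CYBB, chrX:37779809-37780058, plus strand: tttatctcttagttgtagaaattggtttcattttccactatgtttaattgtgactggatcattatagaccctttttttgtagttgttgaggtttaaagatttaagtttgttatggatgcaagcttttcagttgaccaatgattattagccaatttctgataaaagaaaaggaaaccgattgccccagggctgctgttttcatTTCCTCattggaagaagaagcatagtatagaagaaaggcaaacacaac
NCF1, chr7:74773761-74774010, plus strand: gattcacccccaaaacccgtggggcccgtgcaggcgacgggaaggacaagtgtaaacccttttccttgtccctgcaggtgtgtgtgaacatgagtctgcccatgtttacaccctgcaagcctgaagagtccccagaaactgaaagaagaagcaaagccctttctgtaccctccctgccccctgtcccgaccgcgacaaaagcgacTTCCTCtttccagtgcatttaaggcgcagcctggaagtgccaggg
CYBA, chr16:88651054-88651303, minus strand: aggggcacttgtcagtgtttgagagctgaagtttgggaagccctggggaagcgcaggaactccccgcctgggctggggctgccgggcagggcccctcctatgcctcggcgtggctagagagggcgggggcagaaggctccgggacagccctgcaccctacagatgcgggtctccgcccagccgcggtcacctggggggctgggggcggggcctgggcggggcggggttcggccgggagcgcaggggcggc

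In the window from 250 bases before to 50 after the start, searched on both strands, GAGGAA occurred 1 time in CYBB and 1 time in NCF1, each on the opposite strand with its first base at -48 and -45. It was not among the letters of the CYBA window, and 27.9% of 35116 RefSeq promoters of that length hold it. CCAAT occurred 4 times in CYBB and not in the other windows (34.6% of promoters). AGATAA, the letters of a GATA motif, occurred 1 time, in CYBB at -249 (10.3% of promoters), and neither AATCAC (a GFI1 core, 10.2%) nor TATAAA (11.5%) was found in these windows. These matches are letters only and no binding was measured.

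Per library the gene table held 32.5e6 to 61.1e6 estimated counts. The unit of level is CPM (counts per 1e6, TMM scaled between libraries), printed with the SD over 3 libraries. The libraries also split in a way the labels do not name: RRP9, a factor of ribosomal RNA processing, was at 0.677 to 1.73 CPM before scaling in 8 libraries (DMSO C, PRT220 A, B and C, PRT220+GSK-LSD1 C, MS023 A and C, MS023+GSK-LSD1 B) and at 29.1 to 36.1 CPM in the other 16. Where a member's call against DMSO or a single agent was lost or gained on 1 side of this split, the value there is given. On the low side DMSO, PRT220+GSK-LSD1 and MS023+GSK-LSD1 each have 1 library, and on the high side MS023 has 1, and a lone library takes its spread from the other groups. The leukaemia markers CD33, FLT3, MPO, SPI1, CD34 and KIT summed to between 742 and 882 CPM in every group, but not evenly. The sum was 852 to 881 CPM in DMSO, 766 to 800 with GSK-LSD1 and 742 to 785 with PRT220+GSK-LSD1. Of these 6 markers edgeR called 2 higher and 2 lower with GSK-LSD1 against DMSO (17.6% and 15.0% of all genes). With PRT220+GSK-LSD1 it also called 2 higher and 2 lower (24.4% and 22.1%). Markers of erythroid, B, T and epithelial or fibroblast cells summed to at most 4.02 CPM, with MS4A1 and KRT19 at 0 in all libraries.

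CYBB was the subunit with the widest range. It stood at 3.60 ± 0.22 CPM in DMSO, reached 10.3 ± 0.81 with PRT220 and 18.1 ± 0.83 with GSK-LSD1, and was highest with both agents, at 42.7 ± 2.73 CPM, 11.8-fold the DMSO mean. MS023 gave 2.47 ± 0.18 CPM. NCF1 followed with a range from 8.35 ± 0.62 CPM in MS023 to 38.9 ± 6.95 CPM in PRT220+GSK-LSD1, while the group means of CYBA, NCF4 and RAC2 stayed between 193 and 228, 99.7 and 123, and 171 and 204 CPM.

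**Figure D1:**
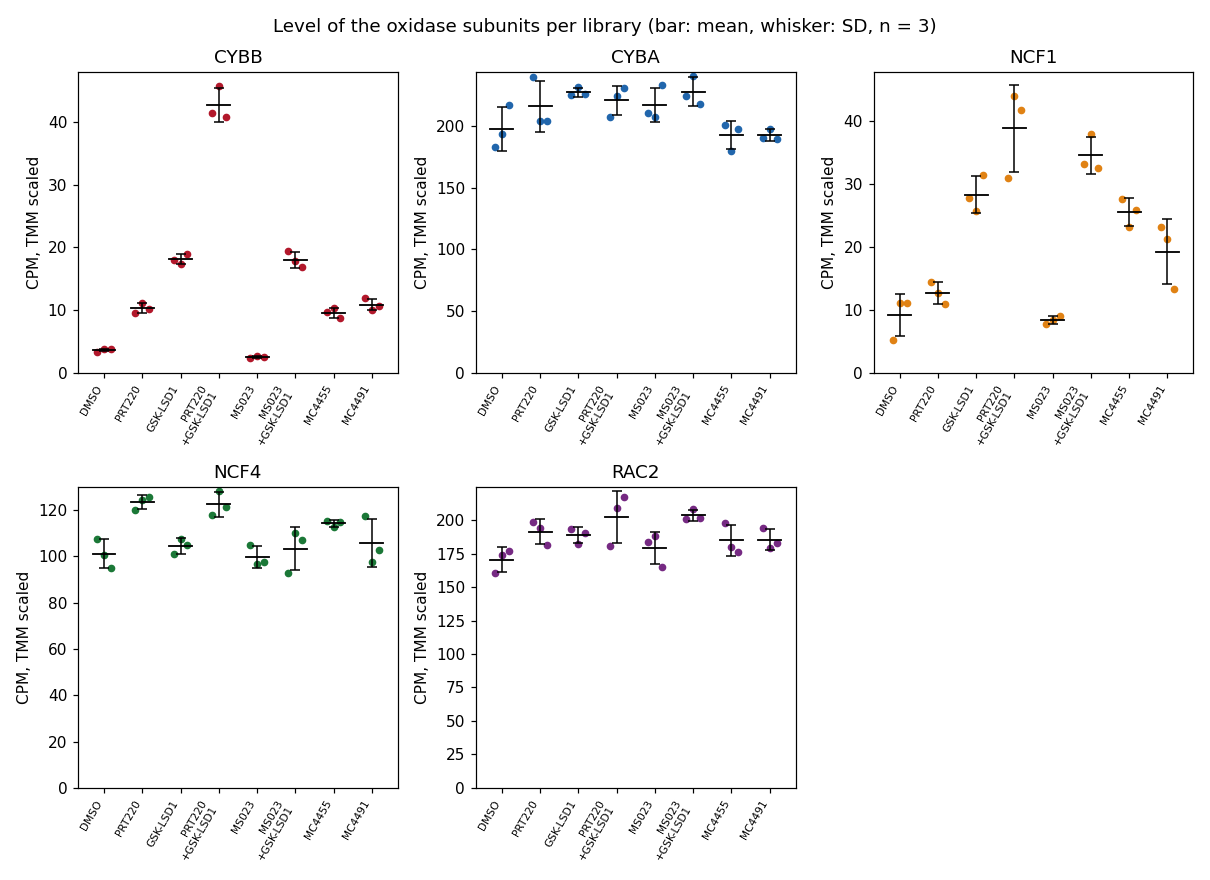
Level of CYBB, CYBA, NCF1, NCF4 and RAC2 in each library, in CPM after TMM scaling, on linear axes that start at 0, by treatment group. Points are libraries, the bar is the mean and the whisker the SD (n = 3). CYBB ranges from 2.32 to 45.8 CPM and NCF1 from 5.24 to 44.0 CPM, while CYBA, NCF4 and RAC2 span narrower bands relative to their means.

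The members were far from equal in abundance. Compared per transcript length, as TPM (transcripts per 1e6 transcripts), DMSO cells held 537 ± 38.1 TPM of CYBA, 261 ± 11.3 of RAC2, 156 ± 12.02 of NCF4, 14.4 ± 5.26 of NCF1 and 1.85 ± 0.088 of CYBB. CYBB, the gene of the catalytic subunit, was thus the scarcest, with 290.4 ± 15.8 CYBA transcripts for each of its own. This ratio fell to 112.6 ± 19.3 with PRT220, 66.5 ± 3.92 with GSK-LSD1 and 26.9 ± 2.62 with both. It was 467 ± 50.9 with MS023. The ratio describes RNA only, and the proteins were not measured.

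CYBB (ENSG00000165168, GRCh38 chromosome X, 37780011 to 37813461, plus strand) was read almost wholly from 1 transcript, CYBB-201, with 99.9% of its counts. The DMSO libraries A, B and C stood at 3.35, 3.71 and 3.75 CPM, the PRT220 libraries at 9.51, 11.1 and 10.2, and the GSK-LSD1 libraries at 17.9, 17.3 and 19.0. The combination libraries stood at 41.5, 45.8 and 40.8 CPM. None of these treated groups overlapped DMSO. Of all tested genes, 36.7% had no overlap with PRT220 against DMSO, 46.2% with GSK-LSD1 and 53.0% with the combination. Among the treated groups, every GSK-LSD1 library lay above every PRT220 library and every combination library above all of them. Of all genes, 19.4% were called higher in the combination than with PRT220 and 7.01% than with GSK-LSD1. PRT220 libraries all lay on the low side of the RRP9 split and GSK-LSD1 libraries on the high side. Their difference cannot be told apart from the split.

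Against DMSO the log2 fold change of CYBB was 1.51 ± 0.087 (standard error) with PRT220 (adjusted p = 2.81e-10), 2.32 ± 0.087 with GSK-LSD1 (4.34e-14) and 3.56 ± 0.090 with the combination (1.43e-16), in the quasi-likelihood test of edgeR, adjusted over 16640 genes by Benjamini-Hochberg. Few genes moved further up: 150 genes had a larger log2 fold change with PRT220, 196 with GSK-LSD1 and 110 with the combination. All PRT220 libraries lay on the low side of the RRP9 split. Within that side, where DMSO C is the lone control, the value with PRT220 was 1.44 (adjusted p = 0.00227), and on the other side of the split GSK-LSD1 gave 2.35 (adjusted p = 4.85e-09).

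The combination raised CYBB above either agent alone, by 2.06 ± 0.082 on the log2 scale over PRT220 (edgeR adjusted p = 1.36e-13) and by 1.24 ± 0.080 over GSK-LSD1 (7.17e-09). On the linear scale the increments of the single agents, 6.66 and 14.5 CPM, added to the DMSO mean give 24.7 CPM, below the lowest combination library at 40.8 CPM. The product of the 2 ratios gives 51.5 CPM, above the highest combination library at 45.8 CPM. The interaction on the log2 scale was -0.27 ± 0.12 and did not pass the test over all genes (unadjusted p = 0.0333, edgeR adjusted p = 0.44, 0.541% of all genes called either way, range 0.401 to 0.763 over 19 alternatives). The departure from the product of the ratios was therefore not distinguished from the spread between libraries in the test over all genes. PRT220 libraries all lay on the low side of the RRP9 split and GSK-LSD1 libraries all on the high side. The sum, the product and the interaction could thus not be taken within a side, and no such fit is among the 19 alternatives.

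**Figure D2:**
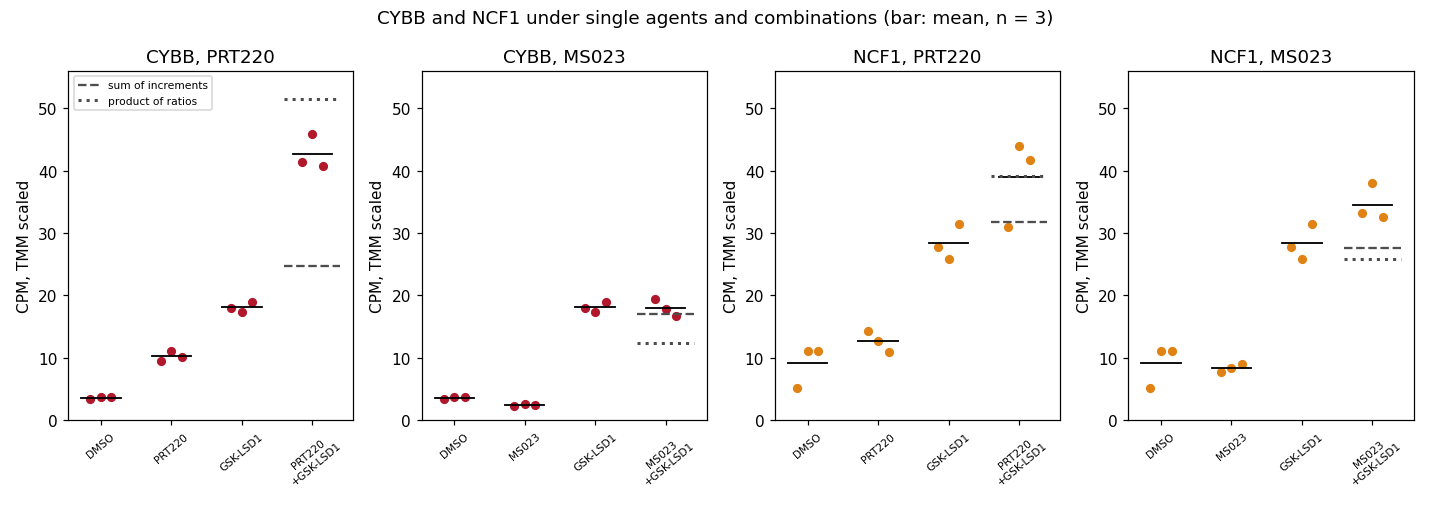
CYBB and NCF1 in CPM after TMM scaling under DMSO, each single agent and its combination with GSK-LSD1, on linear axes from 0. Points are libraries and the solid bar is the mean (n = 3), the dashed line adds the increments of the single agents to DMSO and the dotted line multiplies their ratios. For CYBB with PRT220 the combination libraries lie between the lines at 24.7 and 51.5 CPM.

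MS023 was the only treatment with a lower CYBB mean than DMSO. The MS023 libraries stood at 2.32, 2.66 and 2.43 CPM, all below the lowest DMSO library at 3.35 (17.2% of all genes had no overlap here). CYBB fell by 0.55 on the log2 scale (standard error 0.094, edgeR adjusted p = 0.00407). The direction was the same in all 15 alternatives, but the call was lost when the MS023 and DMSO libraries were fitted alone (-0.54, adjusted p = 0.233) and on the high and low sides of the RRP9 split (-0.41, adjusted p = 0.243, and -0.66, adjusted p = 0.224). The high side holds only MS023 B and the low side only DMSO C of their groups, so a dependence on the split is not shown by these values.

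With GSK-LSD1 on top, CYBB was not set apart from its level with GSK-LSD1 alone. MS023+GSK-LSD1 libraries stood at 19.4, 17.8 and 16.8 CPM and overlapped the GSK-LSD1 libraries. The increments of the single agents, -1.13 and 14.5 CPM, added to the DMSO mean give 16.95 CPM, within the range of the combination libraries. The product of the ratios gives 12.4 CPM, below the lowest of them. The MS023 decrement was smaller than the combination SD of 1.29 CPM, so its loss or persistence on the linear scale could not be told. CYBB was higher than with MS023 alone by 2.86 ± 0.091 on the log2 scale (edgeR adjusted p = 7.89e-15), and the difference from GSK-LSD1 alone was -0.01 ± 0.080 (adjusted p = 0.964). The interaction of MS023 with GSK-LSD1 was 0.54 ± 0.12 on the log2 scale, with an unadjusted p of 0.000293 and an edgeR adjusted p of 0.301 (0.117 to 1 over 20 alternatives). In that interaction edgeR called 0 genes of all tested (0%), with 1356 genes at an unadjusted p under 0.05, and DESeq2 called 21.

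MC4455 and MC4491 also raised CYBB, to 9.55 ± 0.81 and 10.9 ± 0.93 CPM, with libraries at 9.74, 10.2 and 8.66 and at 11.9, 10.0 and 10.7 CPM. The log2 fold changes were 1.40 ± 0.087 (edgeR adjusted p = 2.97e-09) and 1.59 ± 0.087 (adjusted p = 1.09e-09). The difference between the compounds was -0.19 ± 0.083 on the log2 scale and did not pass the test (edgeR adjusted p = 1). In order of mean CPM the groups ran MS023, DMSO, MC4455, PRT220, MC4491, MS023+GSK-LSD1, GSK-LSD1 and PRT220+GSK-LSD1. Neighbours were not separated by the test among MC4455, PRT220 and MC4491 (edgeR adjusted p = 0.347 and 0.471) and between MS023+GSK-LSD1 and GSK-LSD1 (0.964), and the other neighbours were.

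CYBA (ENSG00000051523, GRCh38 chromosome 16, 88643283 to 88651152, minus strand), the gene of the partner of CYBB in the membrane heterodimer, stayed close to its DMSO level of 198 ± 17.7 CPM. DMSO libraries stood at 183, 193 and 217 CPM and GSK-LSD1 libraries at 225, 232 and 226, just above them (46.2% of all genes had no overlap here). The MS023+GSK-LSD1 libraries at 225, 241 and 218 CPM began next to the highest DMSO library. CYBA was called higher with GSK-LSD1 (log2 fold change 0.20 ± 0.068, edgeR adjusted p = 0.0276) and with MS023+GSK-LSD1 (0.20 ± 0.068, adjusted p = 0.018). With PRT220+GSK-LSD1 the value was 0.16 ± 0.068 (adjusted p = 0.0631), and with PRT220 0.13 ± 0.068 (adjusted p = 0.192), neither past the threshold.

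These CYBA differences lay close to the threshold. The GSK-LSD1 call was lost in 8 of 14 alternatives. Leaving out DMSO A gave 0.15 (adjusted p = 0.145), DMSO B 0.16 (0.134), and GSK-LSD1 A, B or C 0.18, 0.17 and 0.21 (0.091, 0.123 and 0.0558). The MS023+GSK-LSD1 call was lost in 5 of 15, among them leaving out DMSO A (0.15, adjusted p = 0.107), DMSO B (0.18, 0.066) or MS023+GSK-LSD1 B (0.16, 0.0842) and the low side of the RRP9 split (0.12, 0.552). The PRT220+GSK-LSD1 value passed in 5 of 15: with library totals (0.17, 0.0324), with a term for the split (0.16, 0.023), on its high side (0.20, 0.0116), and without DMSO C (0.22, 0.0137) or PRT220+GSK-LSD1 A (0.20, 0.0374). On the low side it was 0.06 (edgeR adjusted p = 0.785). The PRT220 value passed without DMSO C (0.19, adjusted p = 0.0482). On the high side of the RRP9 split the GSK-LSD1 and MS023+GSK-LSD1 calls held, with larger values of 0.27 and 0.23. No neighbouring groups in the order of CYBA means, from MC4491 at 193 CPM to MS023+GSK-LSD1 at 228, differed in that test.

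The gene next to CYBA was called lower in every treatment but MS023. MVD, an enzyme of the mevalonate pathway, lies 782 bases from CYBA and is read from the same strand. It fell by 0.98 with GSK-LSD1 and by 1.34 with PRT220+GSK-LSD1 on the log2 scale, both called by edgeR (15.0% and 22.1% of all genes called lower). With MC4455 and MC4491, where MVD was also called lower, CYBA had log2 fold changes of -0.04 and -0.04. CYBA counts came mostly from CYBA-201 (86.5%), with CYBA-210 at 6.32%, and the group means of CYBA-201 ran from 85.2% to 88.2%.

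NCF1 (ENSG00000158517, GRCh38 chromosome 7, 74773962 to 74789315, plus strand), the gene of the organiser p47phox, rose in 5 of 7 treatments. DMSO libraries A, B and C stood at 5.24, 11.1 and 11.1 CPM, PRT220 libraries at 14.4, 12.6 and 10.9, GSK-LSD1 libraries at 27.8, 25.8 and 31.5, and PRT220+GSK-LSD1 libraries at 31.0, 44.0 and 41.8. DMSO A lay apart from the other controls. PRT220 overlapped DMSO, and every GSK-LSD1 and PRT220+GSK-LSD1 library lay above every DMSO library. Against DMSO, 46.2% of all genes had no overlap with GSK-LSD1 and 53.0% with PRT220+GSK-LSD1.

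The log2 fold change of NCF1 was 1.62 ± 0.22 with GSK-LSD1 (edgeR adjusted p = 5.08e-06), 2.08 ± 0.22 with PRT220+GSK-LSD1 (1.17e-07) and 1.91 ± 0.22 with MS023+GSK-LSD1 (4.56e-07). PRT220 alone gave 0.45 ± 0.22 and did not pass the test (adjusted p = 0.139), nor did MS023 alone at -0.14 ± 0.22 (0.82). The PRT220 combination was higher than PRT220 by 1.62 ± 0.21 (edgeR adjusted p = 4.32e-06). Its difference from GSK-LSD1 was 0.46 ± 0.21 (adjusted p = 0.151), which passed only when the compared groups were fitted alone (0.47, adjusted p = 0.0345). The MS023 combination was higher than MS023 by 2.05 ± 0.22 (2.47e-07).

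NCF1 also rose with MC4455, to 25.5 ± 2.24 CPM (log2 fold change 1.47 ± 0.22, edgeR adjusted p = 4.66e-05), and with MC4491, to 19.3 ± 5.19 CPM (1.07 ± 0.22, adjusted p = 0.00128). The MC4491 libraries were uneven at 23.1, 21.3 and 13.4 CPM, and the last lay above the highest DMSO library by little. Without DMSO A the MC4491 value was 0.80 and without MC4491 C it was 1.27, and the call held in both. The difference between MC4455 and MC4491 was 0.40 ± 0.21 and did not pass the test (edgeR adjusted p = 1). In the order of NCF1 means only the step from PRT220 to MC4491 separated neighbours (edgeR adjusted p = 0.0353).

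NCF1 has the near-identical pseudogenes NCF1B (ENSG00000182487) and NCF1C (ENSG00000165178), and reads that fit more than 1 copy are shared out by estimation, so its own level is uncertain. NCF1 took 55.3% to 63.7% of the counts of the 3 copies over the 24 libraries. Summed over the 3 copies the log2 fold changes were 1.62 with GSK-LSD1, 2.14 with PRT220+GSK-LSD1, 1.90 with MS023+GSK-LSD1, 1.54 with MC4455 and 1.15 with MC4491, and 0.44 with PRT220 (edgeR adjusted p = 0.143). The sum was chosen after seeing the data, and it changed no call. Within NCF1, NCF1-201 held 85.3% of the counts and the retained-intron transcript NCF1-202 held 8.57%.

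NCF4 (ENSG00000100365, GRCh38 chromosome 22, 36860988 to 36878015, plus strand), the gene of p40phox, rose with PRT220 and with its combination. DMSO libraries stood at 107.5, 100.5 and 95.0 CPM and PRT220 libraries at 119.9, 124 and 126, with no overlap (36.7% of all genes had none). PRT220+GSK-LSD1 libraries stood at 118, 128 and 121 CPM. GSK-LSD1 libraries at 100.9, 107.6 and 104.9 CPM overlapped DMSO.

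The log2 fold change of NCF4 was 0.29 ± 0.065 with PRT220 (edgeR adjusted p = 0.00231) and 0.28 ± 0.065 with the combination (0.00145), against 0.05 ± 0.065 with GSK-LSD1 (0.613). Within the low side of the RRP9 split the PRT220 value was 0.36 (adjusted p = 0.0128). Over GSK-LSD1 the combination was higher by 0.23 ± 0.065 (edgeR adjusted p = 0.0203), with values of similar size but no call without GSK-LSD1 A (0.21, adjusted p = 0.0691), GSK-LSD1 C (0.23, 0.0535) or PRT220+GSK-LSD1 B (0.19, 0.101) and on the high side of the RRP9 split (0.23, 0.057). MC4455 gave 114 ± 1.54 CPM and 0.18 ± 0.065 (adjusted p = 0.0373), a call lost in 7 of 14 alternatives. The value was 0.17, 0.18 and 0.17 without MC4455 A, B or C, 0.16 without DMSO B, 0.13 without DMSO C and 0.13 on the high side of the RRP9 split (edgeR adjusted p from 0.0741 to 0.19).

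NCF4 counts fell mainly on a pair of coding transcripts. NCF4-201 (ENST00000248899) held 88.3% of its transcript counts on average and NCF4-202 (ENST00000397147) 11.7%. The share of NCF4-202 was 9.28%, 9.22% and 6.99% in DMSO, 14.4%, 12.4% and 15.1% with PRT220, and 14.5%, 18.3% and 16.2% with PRT220+GSK-LSD1. It was 8.85%, 8.71% and 8.81% with GSK-LSD1, within the DMSO range.

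The mean shares were 8.50% ± 1.30 in DMSO, 13.96% ± 1.42 with PRT220 and 16.3% ± 1.93 with the combination. MC4455 (12.2% ± 0.39), MC4491 (12.3% ± 1.98) and MS023+GSK-LSD1 (10.6% ± 0.35) also lay above every DMSO library. Of 31674 transcripts of tested genes with a mean share between 5% and 95%, the share of 10.8% lay wholly above DMSO with PRT220, of 13.4% with the combination, of 13% with MC4455, of 11.5% with MC4491 and of 10.5% with MS023+GSK-LSD1. Each of these 5 groups gave a two-sided exact permutation p of 0.1 against DMSO, the smallest that 3 against 3 libraries allow, so none can pass 0.05. The antisense gene NCF4-AS1 is described as overlapping NCF4, but it was not found by symbol in the gene table, so its level is not known here. The libraries are unstranded, so any reads of both could not be told apart.

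**Figure D3:**
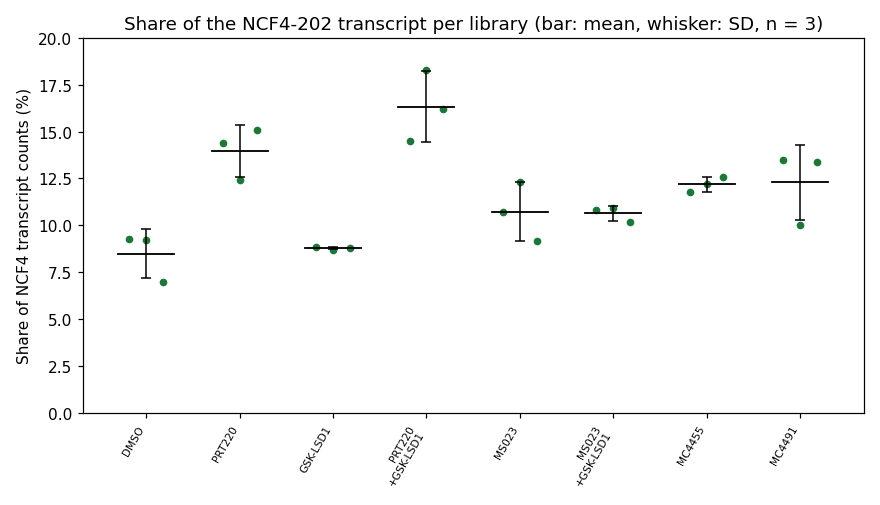
Share of NCF4 transcript counts on NCF4-202, in percent, per library and treatment group, on an axis from 0. Points are libraries, the bar is the mean and the whisker the SD (n = 3). All PRT220 and PRT220+GSK-LSD1 libraries lie at 12.4% or above and all DMSO libraries at 9.28% or below.

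RAC2 (ENSG00000128340, GRCh38 chromosome 22, 37225261 to 37244448, minus strand), the GTPase of the complex, differed from DMSO by small amounts. DMSO libraries stood at 160.3, 174 and 177 CPM. The MS023+GSK-LSD1 libraries at 201, 208 and 202 CPM lay above all of them, and the PRT220+GSK-LSD1 libraries at 181, 209 and 218 CPM did so as well. With PRT220+GSK-LSD1 against DMSO, 53.0% of all genes had no overlap. With MS023+GSK-LSD1 against DMSO, edgeR called 8054 of 16640 genes either way. RAC2 was called higher in both combinations, by 0.26 ± 0.064 and 0.25 ± 0.064 on the log2 scale (edgeR adjusted p = 0.00245 and 0.00327).

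The single agents gave RAC2 values of 0.17 ± 0.064 with PRT220 (edgeR adjusted p = 0.0612) and 0.14 ± 0.064 with GSK-LSD1 (0.0897), neither past the threshold. The PRT220 value passed in DESeq2 (0.16, adjusted p = 0.0496) and without PRT220 C (0.20, 0.0444), and that of MC4455 passed with library totals (0.17, 0.0369). MS023+GSK-LSD1 was above MS023 by 0.19 ± 0.064 (edgeR adjusted p = 0.0246), a call lost without MS023 C (0.13, adjusted p = 0.131), without MS023+GSK-LSD1 B (0.17, 0.0552) and on the high and low sides of the RRP9 split (0.10, 0.497, and 0.23, 0.098). Both combination calls against DMSO were lost on the low side of the RRP9 split (0.20, adjusted p = 0.197, and 0.27, adjusted p = 0.0946), where each combination and DMSO have 1 library. RAC2-201 held 98.0% of its counts.

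By treatment, the count of members called can be read against the share of all tested genes called higher in the same edgeR comparison. PRT220 raised 2 of 5, CYBB and NCF4 (13.8% of all genes). GSK-LSD1 raised 3, CYBB, NCF1 and CYBA (17.6%). PRT220+GSK-LSD1 raised 4, all but CYBA (24.4%), and MS023+GSK-LSD1 raised 4, all but NCF4 (25.1%). MC4455 raised 3, CYBB, NCF1 and NCF4 (18.5%), and MC4491 raised CYBB and NCF1 (15.5%). MS023 lowered 1, CYBB, where 1.36% of all genes were called lower.

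Comparisons of combinations with single agents were read in the same way. Adding GSK-LSD1 to PRT220 raised CYBB and NCF1 (19.4% of all genes called higher), adding PRT220 to GSK-LSD1 raised CYBB and NCF4 (7.01%), and adding GSK-LSD1 to MS023 raised CYBB, NCF1 and RAC2 (20.0%). Adding MS023 to GSK-LSD1 gave 0 calls among the members, with 0 at an unadjusted p under 0.05 in edgeR and 0 in DESeq2, where 10.9% of all genes were called either way. The comparison of MC4455 with MC4491 gave 0 calls, with 1 member, CYBB, at an unadjusted p under 0.05 and 0 calls in DESeq2. Among all genes edgeR called 0% either way, with 780 at an unadjusted p under 0.05, and DESeq2 called 19. Several of these comparisons share their control libraries, so their values are not independent of each other.

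**Figure D4:**
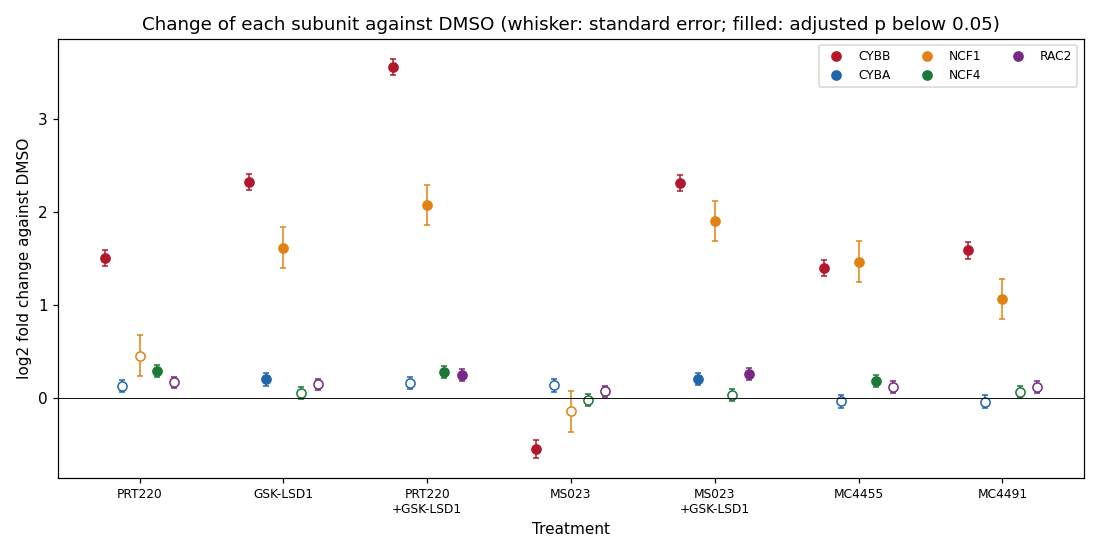
Log2 fold change against DMSO of CYBB, CYBA, NCF1, NCF4 and RAC2 for each treatment, with standard errors as whiskers. Filled points have an edgeR adjusted p below 0.05 and open points do not. CYBB stands highest with PRT220+GSK-LSD1 at 3.56 and below 0 only with MS023, and NCF1 is highest in the 3 groups with GSK-LSD1.

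Among 20 assembly and activation partners, PRT220 raised 11 and lowered 2, GSK-LSD1 raised 5 and lowered 8, and the combination raised 7 and lowered 8 in edgeR's test. Of all tested genes, 13.8%, 17.6% and 24.4% were called higher and 11.1%, 15.0% and 22.1% lower in these comparisons. The median log2 fold changes were 0.14, -0.01 and -0.09, beside 0.00, 0.03 and 0.04 over all genes tested. CYBC1, the chaperone that gp91phox and p22phox need for assembly, rose with PRT220 (0.23) and the combination (0.13), with 0.04 and no call under GSK-LSD1. PREX1, an exchange factor for RAC proteins, rose by 0.37, 0.49 and 0.60 in the same order, and PAK1, a kinase that RAC activates, by 0.13, 0.43 and 0.48.

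Other partners went down with GSK-LSD1. PRKCB, a kinase that phosphorylates p47phox, rose with PRT220 (0.23) and fell by 0.40 with GSK-LSD1 and by 0.25 with the combination. PLA2G4A, the cytosolic phospholipase that makes the activator arachidonic acid, likewise rose with PRT220 (0.29) and fell by 0.59 and 0.31. RAC3 fell by 0.87 with GSK-LSD1 and by 1.14 with the combination, and HVCN1, the proton channel that balances the charge the oxidase moves, fell by 0.29 and 0.32. S100A9, a calcium-binding partner of the complex, gave 3.27 with GSK-LSD1 but from a DMSO mean of 0.21 CPM.

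**Figure D5:**
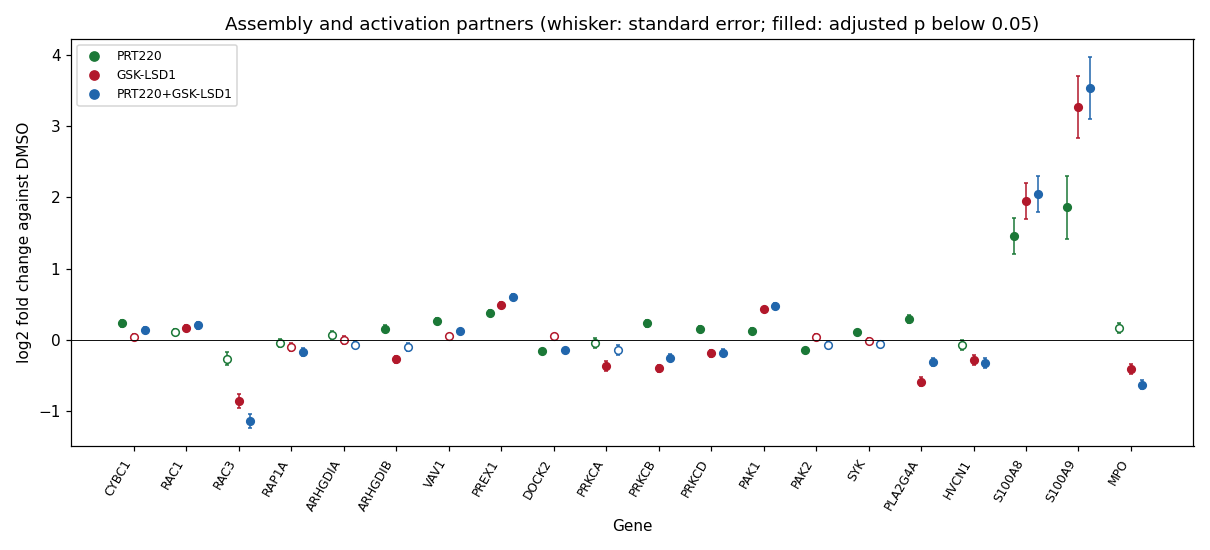
Log2 fold change against DMSO of the 20 assembly and activation partners with PRT220, GSK-LSD1 and PRT220+GSK-LSD1, with standard errors as whiskers. Filled points have an edgeR adjusted p below 0.05. RAC3, PRKCB and PLA2G4A lie below 0 with GSK-LSD1, and PREX1 and PAK1 lie above 0 in all 3 comparisons.

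Of 15 transcription factors described at oxidase promoters, 14 were tested, and the combination raised 5 and lowered 4 of them, beside 24.4% of all genes higher and 22.1% lower. SPI1, which encodes PU.1, had a log2 fold change of -0.15 with GSK-LSD1 and -0.15 with the combination, neither called. IRF1, an activator of CYBB, rose by 0.35 and 0.29. CUX1, known as a repressor of CYBB, rose by 0.38 with GSK-LSD1 and 0.56 with the combination. CEBPA fell by 0.62 and 0.72, and CEBPB by 0.37 and 0.44.

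Of 15 receptors that trigger the oxidase, 14 were tested, and GSK-LSD1 raised 4 and lowered 7, beside 17.6% of all genes higher and 15% lower. ITGAM, the alpha chain of complement receptor CR3, rose by 3.10 with GSK-LSD1 and 3.91 with the combination. FCGR2A, a receptor for IgG complexes, rose by 0.45 and 0.47, whereas FCGR1A fell by 0.65 and 0.85, TLR2 by 0.88 and 0.74, and TLR4 by 0.74 and 0.48. Of 9 enzymes of NADPH supply, the combination raised 1 and lowered 5 (24.4% and 22.1% of all genes), with IDH1 down by 0.44.

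Markers of other maturation states also differed between groups, and not always with the members. The sum of the monocyte markers (CD14, LYZ, CSF1R, FCGR1A, MPEG1 and ITGAM, of which 6 of 6 were in the table) was 1117 to 1146 CPM in DMSO, 1304 to 1396 with PRT220, 2747 to 2897 with GSK-LSD1 and 2310 to 2498 with PRT220+GSK-LSD1. It was 1085 to 1184 CPM with MS023, 2120 to 2446 with MS023+GSK-LSD1, 1244 to 1391 with MC4455 and 1213 to 1332 with MC4491. The granulocyte markers (ELANE, PRTN3, CTSG, AZU1, CEBPE and MMP8, with MMP8 at 0) summed to 376 to 422 CPM in DMSO, 378 to 437 with PRT220, 178 to 191 with GSK-LSD1 and 138 to 165 with PRT220+GSK-LSD1. They summed to 366 to 401 CPM with MS023, 165 to 189 with MS023+GSK-LSD1, 233 to 288 with MC4455 and 311 to 353 with MC4491. Against DMSO the monocyte sum was higher without overlap in every treatment that raised CYBB, and with MS023, which lowered CYBB, it overlapped DMSO. The 6 markers did not all move together. With PRT220 edgeR called 3 higher and 1 lower (13.8% and 11.1% of all genes). With GSK-LSD1 and with PRT220+GSK-LSD1 it called 4 higher and 1 lower (17.6% and 15.0%, 24.4% and 22.1%). MS023+GSK-LSD1 and MC4455 also gave 4 higher and 1 lower (25.1% and 18.5% of all genes higher), and MC4491 gave 3 and 0 (15.5% higher). From GSK-LSD1 to PRT220+GSK-LSD1 the monocyte sum was lower without overlap while CYBB was higher. Of its 6 markers, edgeR called 1 higher there, 1 lower and 4 neither. Among all 16640 genes it called 2553 either way, of which 1166 (7.01% of all genes) were higher. Their median log2 fold change was 0.09. With PRT220 the granulocyte sum overlapped DMSO while CYBB was higher. ITGAM and FCGR1A also stand among the receptors, and MPO among both the leukaemia markers and the partners. The part of these markers in the oxidase results was not tested, and in these bulk libraries fewer expressing cells and less RNA per cell cannot be told apart.

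The genes most alike to each member were taken by Pearson correlation of log2 CPM over the 24 libraries among 1153 or 1154 variable genes. These correlations largely reflect the 8 groups that the libraries share. CYBB was closest to LPAR1 (r = 0.98), PTPN14 (0.98) and TLR1 (0.97). NCF1 was closest to its copy NCF1C (0.99), to GTF2IRD2B (0.97), which also has a near-identical copy, and to SEMA6B (0.97). The members with little change had looser neighbours: TMSB10 (0.80), CTSW (0.74) and ADCK1 (0.74) for CYBA, C11orf71 (0.85), CYFIP2 (0.85) and ST8SIA6 (0.83) for NCF4, and DNAJC4 (0.82), KRT8 (0.77) and ARRDC4 (0.76) for RAC2.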

How the data were processed

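The authors deposited estimated counts per gene and per transcript, read as such from the values. The submitters' processing notes name STAR 2.7.3a, Salmon 1.2.1, the GRCh38 build, DESeq2 1.28.1 and R 4.0.0 without their roles, and the annotation release is not given in the sources used here. Per the labels, libraries were unstranded with 101-base reads. Totals of 32.5e6 to 61.1e6 counts left the lowest member count in any library at 98 (CYBB, MS023 A), with 192 for NCF1 (DMSO A).

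Gene counts were rounded and fitted in R 4.3.3 with edgeR 4.0.16 (TMM, filterByExpr, quasi-likelihood test, 24 libraries, 1 coefficient per group). Benjamini-Hochberg adjustment covered all 16640 genes passing the filter, with calls at 0.05, and 14 comparisons were made. The script was tested on simulated counts. Transcripts were paired through GENCODE 29 (167008 of 178398, holding 96.6% to 96.8% of reads), and TPM was computed from those lengths. The range of transcript shares set beside that of NCF4-202 was chosen after seeing the data. The members and gene lists were chosen with earlier results of these data known. Named genes are the members, their neighbours and partners, up to 4 called genes per list with the largest change, and the 3 genes most correlated with each member among those with at least 5 CPM and an SD of 0.3. CYBC1, PAK1, PREX1, PRKCB, PLA2G4A, HVCN1, SPI1, IRF1, FCGR2A and TLR4 include genes outside that rule, chosen for their role after values were seen. Alternatives were DESeq2 1.42.0, RLE scaling, library totals, no filter, the compared groups alone, the RRP9 split as a term or within each side, a replicate block, leaving out each library, and the 3 NCF1 copies summed. Results of some genes are not reported here.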

Additional observations from a re-analysis of the deposited data

How the results depend on the processing

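Over the alternatives, the 26 called values of the members gave 383 values: 350 kept the call, 33 lost it and 0 changed direction. 18 of the 26 never lost the call, among them every CYBB rise and every NCF1 rise. The number of members called with MS023 against DMSO went from 1 to 0 when only the groups compared were fitted, with RRP9 at or above 5 CPM and with RRP9 below 5 CPM. For PRT220+GSK-LSD1 against GSK-LSD1 it went from 2 to 1 with RRP9 at or above 5 CPM and lay between 1 and 2 when single libraries were left out. For MS023+GSK-LSD1 against DMSO it went from 4 to 2 with RRP9 below 5 CPM. The cause was not tested, and those fits also hold fewer libraries. PRT220 has no library on the high side of the split, and GSK-LSD1, MC4455 and MC4491 have none on the low side, so those values could not be fitted.

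Deviations of libraries of the same letter were at most weakly correlated: in 0 of 28 pairs of groups were all 3 correlations over 0.1, and they ran from -0.19 to 0.15. This cut cannot exclude that libraries of a letter shared a culture. With a replicate block the members called were 2 with PRT220, 3 with GSK-LSD1 and 4 with their combination, and the counts were the same as without it in all 14 comparisons. Of 686 values of results that were not called, 10 passed the threshold under an alternative and 67 changed sign.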

Other observations

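Genes that handle the products of the oxidase were described in the same fit. Of 20 antioxidant genes 19 were tested, and GSK-LSD1 raised 6 and lowered 5 of them in edgeR's test (17.6% and 15% of all genes), while PRT220 raised 2 and lowered 3 (13.8% and 11.1%). PRDX1, a peroxidase, rose by 1.08 on the log2 scale with GSK-LSD1 and by 1.14 with PRT220+GSK-LSD1, and GPX1, a glutathione peroxidase, by 0.45 and 0.46. CAT, which encodes catalase, fell by 0.49 and 0.75, and SOD1, a superoxide dismutase, by 0.30 and 0.46. SLC7A11, the cystine importer that feeds glutathione synthesis, fell by 0.87 with PRT220, 0.82 with GSK-LSD1 and 1.36 with both.

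Of 10 other NADPH oxidase genes and partners, 5 passed the filter. DUOX1 rose by 0.71 with MC4455 and 0.64 with MC4491, and DUOX2 by 0.86 and 0.65. DUOX1 also rose with GSK-LSD1 (0.32), PRT220+GSK-LSD1 (0.40) and MS023+GSK-LSD1 (0.61), and DUOX2 with MS023+GSK-LSD1 (0.62), from DMSO means of 7.58 and 7.83 CPM. With PRT220 0 of the 5 were called in edgeR's test.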
